A study of Mus musculus with 8 samples.

Results

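The tripartite motif (TRIM) genes were compared between Trim58 knockout and wild type mice in the middle colon after chemically induced colitis. Members were the probe sets whose platform annotation gave exactly 1 gene symbol made of Trim and a digit, and where a gene had several probe sets the brightest over all 8 arrays was kept. This gave 64 TRIM genes from 69 probe sets, out of 22180 genes tested, and a further 7 probe sets that carried a TRIM symbol together with another symbol were left out. All 64 members were tested with no filter on dim genes.

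RNA came from female mice, 9 weeks old, of the strain C57BL/6-Trim58tm2313Arte. The 4 knockout mice (KO) were Trim58-/- and lacked the gene in the whole body, and the 4 wild type mice (WT) were Trim58+/+. Mice of both genotypes were given 4% dextran sodium sulfate (DSS) in the drinking water for 7 days, which damages the colon lining, followed by plain water for 5 days. Tissue was collected on day 12, and each array holds the RNA of 1 mouse. No mouse without DSS was among these arrays, so the values compare genotypes within colitis and do not show what colitis itself did to any TRIM gene.

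TRIM proteins carry a RING finger, B-box zinc fingers and a coiled coil in a fixed order. The RING finger passes ubiquitin from a conjugating enzyme (E2) to a substrate, and the domain that follows the coiled coil picks the substrate and sorts the family into classes. Many members with a C-terminal PRYSPRY domain act in innate immunity, some as antiviral factors or as brakes on Toll-like receptor signalling. Members with PHD and bromodomains act on chromatin, and others belong to muscle, neurons or red cell precursors. Trim58 is a PRYSPRY member best known from late erythroblasts of the mouse, where it targets the motor protein dynein, and has also been studied as a regulator of Toll-like receptor 2 in myeloid cells.

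Values are signals after robust multi-array averaging (RMA) on the log2 scale, and differences are KO minus WT. A gene was called changed at a Benjamini-Hochberg adjusted p under 0.05 from limma over all 22180 genes, a rule that called 0.577% of all genes. Array medians lay between 5.73 and 5.83, and correlations between arrays between 0.972 and 0.989. Colonocyte markers were bright in every array (list mean 10.51 to 10.63 in KO and 10.86 to 11.07 in WT, log2). Digestive enzyme genes of the pancreas were bright in 3 knockout arrays: the mean of 15 measured acinar markers was 10.35, 11.14 and 10.94 in KO replicates 1, 2 and 4, 6.09 in KO replicate 3 and 6.14 to 6.24 in WT. Of 18 neutrophil markers 12 were called higher in KO. Of 12 smooth muscle markers 0 were called, but all 12 differences were below zero (median -0.35, 6 lower at the unadjusted limma p), with list means of 9.64 to 10.21 in KO and 9.97 to 10.41 in WT. In bulk tissue fewer cells of a type and less RNA per cell cannot be told apart.

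The family as a whole lay close to zero. 1 of the 64 members was called, Trim30b, which rose in KO, and 0 were called lower; the same rule called 0.392% of all genes higher and 0.185% lower. The median difference was 0.01 over the members and -0.01 over all genes, with 33 members above zero and 31 below. The absolute difference was under 0.2 in 50 members (78.1%), against 78.7% of all genes. At an unadjusted limma p under 0.05, 5 members were higher and 2 lower in KO, 7 of 64, where this threshold took 14.3% of all genes (6.22% higher and 8.10% lower). The 4 KO values lay entirely above the 4 WT values in 5 members and entirely below in 2, where 8.81% of all genes had no overlap (3.79% with KO above and 5.02% with KO below). In percent of the members, 7.81% were higher and 3.12% lower at the unadjusted p, and 7.81% lay entirely above and 3.12% entirely below WT. Whether these shares differ from those of all genes was not tested.

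**Figure D1:**
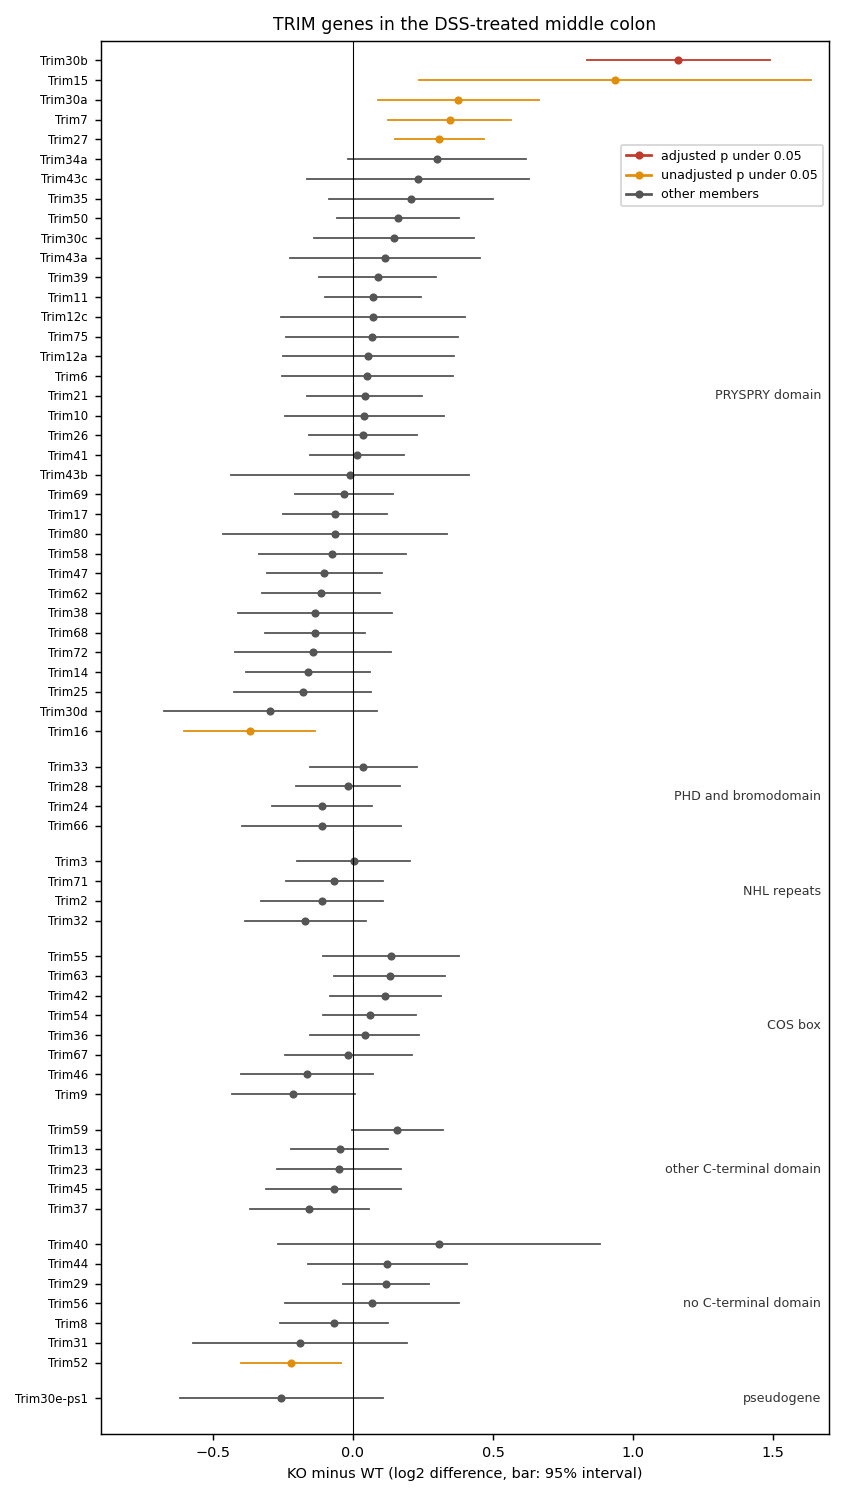
Difference between KO and WT (log2) for each of the 64 TRIM genes, grouped by the domain after the coiled coil; points are limma estimates and bars 95% intervals. Trim30b, at 1.16, is the member past the adjusted threshold; the lowest estimate is -0.37, for Trim16.

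Trim58, the targeted gene, had a single probe set. It read 4.91, 5.37, 4.82 and 5.11 in KO replicates 1 to 4, against 5.22, 5.07, 5.18 and 5.03 in WT replicates 1 to 4. The genotypes overlapped, and the highest of the 8 values was a knockout array (KO replicate 2). The difference was -0.07 with a standard error of 0.12 and a 95% interval from -0.34 to 0.19 (limma adjusted p = 0.839). The unadjusted p by two-sided exact permutation was 0.6. With the pancreatic acinar mean as a covariate the difference was -0.33 and not called, and with KO replicate 3 alone against WT it was -0.30. Both fits rest mainly on KO replicate 3, the knockout array without the pancreatic signal. The signal was dim in WT as well: the WT mean of 5.12 lay below every array median (5.73 to 5.83). The filter on the dimmest 33.3% of genes left Trim58 out. The labels do not tell where the probes lie relative to the deletion, so this signal is no check of the genotype labels. The nearest members to Trim58 along chromosome 11, Trim17 and Trim11, had differences of -0.06 and 0.07.

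Trim30b, a PRYSPRY gene of the mouse Trim30 group, rose in KO. It read 6.03, 6.64, 6.25 and 6.27 in KO replicates 1 to 4, against 5.37, 5.21, 4.81 and 5.15 in WT replicates 1 to 4. Every knockout array was above every wild type array, and the gap between the lowest KO and the highest WT value was 0.66. The means were 6.30 ± 0.25 in KO and 5.14 ± 0.24 in WT (SD, n = 4 each), a 2.24-fold difference (log2 difference 1.16 ± 0.15 SE, limma adjusted p = 0.0104). The exact two-sided permutation p was 0.0286, the smallest that 70 assignments of 4 of 8 arrays can give. KO replicate 3, which lacked the pancreatic signal, read 6.25 and so lay among the other knockouts. With the pancreatic acinar mean as a covariate the difference was 1.08 and the call ended (limma adjusted p = 0.489). In that fit 2 of all 22180 genes were called. With KO replicate 3 alone against the 4 WT arrays the difference was 1.12, and both fits rest mainly on this array. Without any 1 of the 8 arrays the difference lay between 1.05 and 1.25 and the call remained.

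Levels of immune cell markers are given beside Trim30b. The mean of the 18 neutrophil markers was 6.96 to 7.68 in KO and 5.63 to 5.98 in WT. The mean of 15 macrophage markers, 2 of them called higher, was 8.33 to 8.70 in KO and 7.73 to 8.59 in WT, with overlap. The mean of 9 B cell markers, 1 of them called higher and all 9 higher at the unadjusted limma p, was 7.50 to 8.08 in KO and 6.12 to 7.44 in WT. Of 12 T and NK cell markers 0 were called by limma and 2 were higher at the unadjusted p, with 8 differences above zero and 4 below (median 0.08) and means of 5.78 to 6.27 in KO and 5.53 to 6.09 in WT. The part of these cells in the Trim30b difference was not tested.

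**Figure D2:**
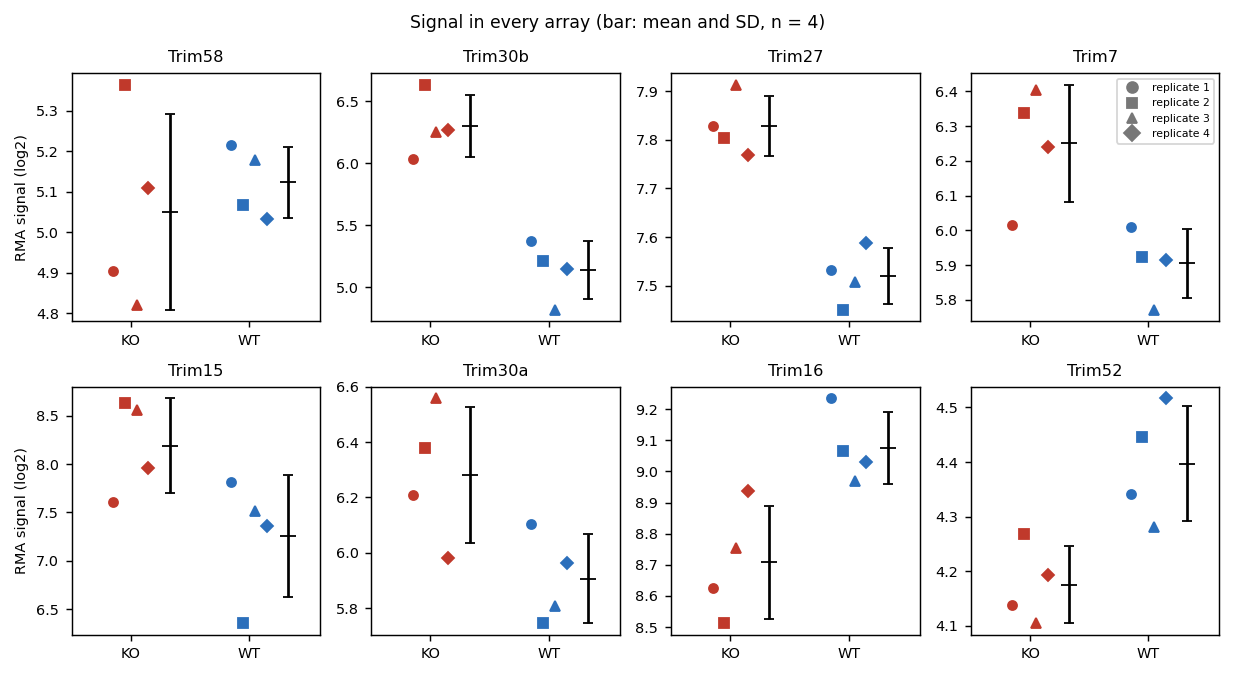
RMA signal (log2) in each of the 8 arrays for Trim58 and the 7 members with an unadjusted limma p under 0.05; symbols mark replicates, and bars give the mean and SD of 4 arrays. KO and WT overlap for Trim58, Trim15 and Trim30a and are separate for the others, with the widest gap for Trim30b (0.66).

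Trim30b sits on chromosome 7 in a cluster of 9 measured members from Trim6 to Trim30e-ps1, most of them relatives of the human retroviral restriction factor TRIM5. The cluster did not move as a block: 7 of the 9 differences were above zero and 2 below, from -0.29 to 1.16, with a median of 0.07. Trim30a, which in mouse macrophages restrains Toll-like receptor signalling through Tab2 and Tab3, read 6.21, 6.38, 6.56 and 5.98 in KO replicates 1 to 4, against 6.11, 5.75, 5.81 and 5.96 in WT replicates 1 to 4. 3 knockout arrays were above the highest wild type array, while KO replicate 4 lay inside the wild type range, and the difference of 0.38 ± 0.13 (SE) did not pass (limma adjusted p = 0.211).

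Trim30d pointed the other way without passing. It read 6.68, 7.07, 7.51 and 7.11 in KO replicates 1 to 4, against 7.50, 7.58, 7.42 and 7.04 in WT replicates 1 to 4, a difference of -0.29 ± 0.17 (SE, limma adjusted p = 0.489). The values of the genotypes overlapped. Trim30c had a difference of 0.15, Trim34a 0.30, Trim12c 0.07, Trim12a 0.05 and Trim6 0.05, and the pseudogene Trim30e-ps1 -0.26, none of them called. The Trim30 genes, and likewise Trim12a and Trim12c, are known as related copies, and whether RNA of a relative hybridises to their probes was not tested. Trim5 and Trim34b, which lie in the same cluster, were not tested because their probe sets carried more than 1 symbol.

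**Figure D3:**
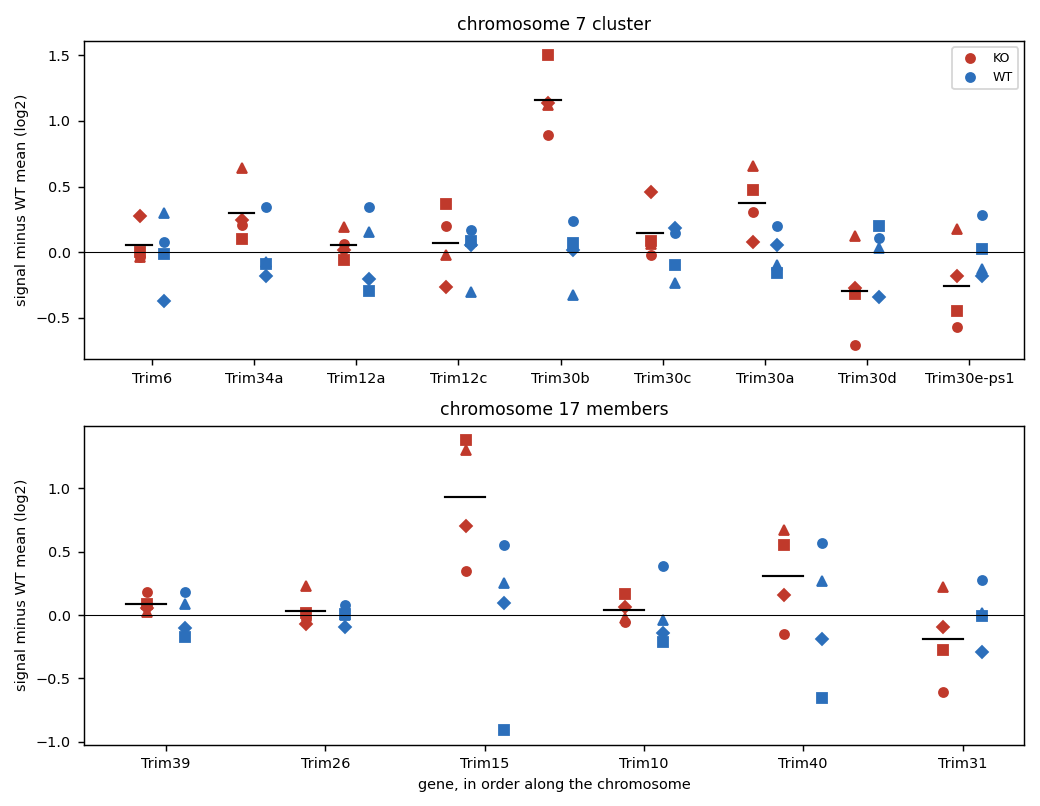
Signal of each array minus the WT mean of the gene (log2) for members on chromosome 7 (top) and chromosome 17 (bottom), in order along the chromosome; symbols mark replicates as circle, square, triangle and diamond for 1 to 4, and black lines the KO mean. KO lies clear of WT for Trim30b alone, and WT replicate 2 is the lowest array for both Trim15 and Trim40.

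Promoter sequences of this cluster were set side by side because Trim30b was called and its neighbours were not. The search was for GAAA, any 2 bases and GAAA again, a short form of the interferon-stimulated response element to which the interferon-activated STAT and IRF factors bind. Both strands were searched, so that a match can also read TTTC, any 2 bases and TTTC. The sequences are those of RefSeq on build GRCm38.p6, from 250 bases before to 50 bases after each annotated start, and were found for 49 of the 64 members. The letters occurred in 3.44% of all 32851 promoters and in 9 of the 63 promoters of members (14.3%), which belonged to 8 genes: Trim2, Trim12a, Trim12c, Trim21, Trim26, Trim30a, Trim30d and Trim34a. In Trim21 and Trim26 a pair of matches overlapped. Of the 8 cluster genes with a promoter in the table, 5 held the letters, and Trim6, Trim30b and Trim30c did not. The 60 bases just before the start are given below for Trim30b and for the 3 cluster genes with the letters in that window, 5′ to 3′ on the strand of the gene, which is the minus strand for each; capitals mark the match.
Trim30b: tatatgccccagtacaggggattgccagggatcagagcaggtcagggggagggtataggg
Trim30a: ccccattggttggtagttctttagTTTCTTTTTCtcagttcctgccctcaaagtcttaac
Trim30d: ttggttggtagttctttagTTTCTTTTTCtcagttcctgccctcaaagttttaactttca
Trim12c: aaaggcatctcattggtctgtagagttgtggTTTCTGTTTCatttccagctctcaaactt

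The windows lie at chr7:104358647-104358706 for Trim30b, chr7:104465194-104465253 for Trim30a, chr7:104507850-104507909 for Trim30d and chr7:104353350-104353409 for Trim12c. The match began 36 bases before the start in Trim30a, 41 in Trim30d and 29 in Trim12c. A further promoter of Trim30a (chr7:104446076-104446375) also held the letters, beginning 2 bases after its annotated start. The windows and alignments used the first listed promoter of each gene. Aligned end to end with gaps allowed, the promoters of Trim30a and Trim30d were identical at 277 of 300 bases, and those of Trim30a and Trim30b at 169. Those of Trim12c and Trim30b were identical at 179, and no unrelated pair was aligned as a baseline. The difference in expression was 0.38 for Trim30a and -0.29 for Trim30d, neither called, and 1.16 for Trim30b, whose window holds no such letters. A match of letters is a description and not a binding site, and the motif was chosen with these differences known.

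The interferon response was examined beside these genes. Of 13 measured members known as interferon-inducible or antiviral, 1 was called (Trim30b), with a median difference of 0.05 and a range from -0.29 to 1.16. Trim25, which ubiquitinates the RNA sensor RIG-I, read 8.74, 8.91, 9.10 and 8.73 in KO replicates 1 to 4, against 9.19, 8.95, 9.17 and 8.89 in WT replicates 1 to 4, a difference of -0.18 ± 0.11 (SE, limma adjusted p = 0.519). Trim21, the cytosolic antibody receptor, had a difference of 0.04, Trim26 0.04, Trim56 0.07, Trim14 -0.16 and Trim38, which restrains inflammatory signalling, -0.13.

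Among 21 measured interferon response genes outside the family 0 were called by limma, and 3 were higher and 1 lower at an unadjusted p under 0.05, with a median of -0.03. Cxcl10, a chemokine for T cells, had the smallest p of them (difference 1.44, limma adjusted p = 0.0982). The mean of these 21 genes was 6.83, 7.38, 7.50 and 6.99 in KO replicates 1 to 4, against 7.42, 6.91, 6.83 and 7.02 in WT replicates 1 to 4. The genotypes overlapped in this mean. KO replicate 1 and WT replicate 3 had the lowest interferon mean of their groups and also the lowest Trim30b. WT replicate 1 had the highest of both in WT. Other arrays were ordered otherwise. KO replicate 3 had the highest interferon mean in KO, but its Trim30b (6.25) lay below KO replicates 2 and 4. WT replicate 4 was above WT replicate 2 in the interferon mean and below it in Trim30b (5.15 and 5.21). Between genotypes, WT replicate 1 at 7.42 read Trim30b at 5.37, and KO replicate 1 at 6.83 read it at 6.03. The part of the interferon response in the Trim30b difference was not tested. Of 8 measured genes of cytosolic RNA and DNA sensing, 0 were called, and 0 were higher and 1 lower at the unadjusted p (Mavs, the mitochondrial adaptor, difference -0.21, limma adjusted p = 0.344).

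3 further PRYSPRY genes separated the genotypes without passing the adjusted test. Trim27, which ubiquitinates the WASH complex in endosomal sorting, read 7.83, 7.80, 7.91 and 7.77 in KO replicates 1 to 4, against 7.53, 7.45, 7.51 and 7.59 in WT replicates 1 to 4. The gap between the groups was 0.18, and the spread inside each was small (SD 0.06 in KO and 0.06 in WT). The difference was 0.31 ± 0.07 (SE, limma adjusted p = 0.0910). The unadjusted p by two-sided exact permutation was 0.0286.

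Trim7, known as a partner of the glycogen primer glycogenin, read 6.02, 6.34, 6.41 and 6.24 in KO replicates 1 to 4, against 6.01, 5.92, 5.77 and 5.91 in WT replicates 1 to 4. The groups did not overlap, but KO replicate 1 and WT replicate 1 differed by 0.0057, and the difference of 0.35 ± 0.10 (SE) missed the threshold (limma adjusted p = 0.141). Trim16, a member without a RING finger that takes part in the autophagy of damaged endomembranes, read 8.63, 8.51, 8.76 and 8.94 in KO replicates 1 to 4, against 9.24, 9.07, 8.97 and 9.03 in WT replicates 1 to 4. All 4 KO values were below the WT values, with a gap of 0.03, and the difference of -0.37 ± 0.10 (SE) did not pass (limma adjusted p = 0.139). It was the lowest difference of the family.

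For 5 members a second, dimmer probe set was on the array. In Trim27 the dimmer set did not follow the brighter: it read 5.74, 5.75, 5.92 and 5.56 in KO replicates 1 to 4, against 5.45, 5.71, 6.04 and 5.86 in WT replicates 1 to 4, a difference of -0.02. In Trim7 the difference was -0.08 in the dimmer set, against 0.35 in the brighter. In Trim34a both sets had differences above zero, 0.23 in the dimmer and 0.30 in the brighter. Trim42 and Trim54 had differences between 0.02 and 0.12 in all of their sets. None of these 10 probe sets was called in a limma fit over all single-symbol probe sets. The labels do not tell which transcripts each probe set reads.

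**Figure D4:**
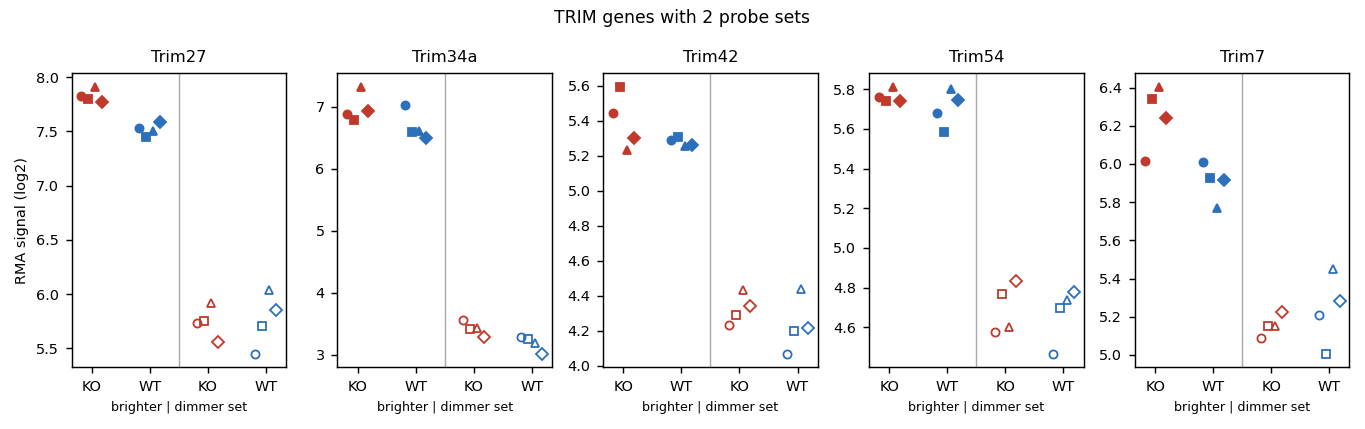
RMA signal (log2) in each array for the 5 TRIM genes with 2 probe sets, the brighter left of the grey line (filled) and the dimmer right of it (open); symbols mark replicates. KO is above WT in the brighter Trim27 and Trim7 sets and overlaps WT in their dimmer sets.

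Among members known from gut and other epithelia, Trim15 and Trim40 had the widest SDs of the whole family, in KO and in WT. Trim15, a focal adhesion protein that takes part in cell migration, read 7.61, 8.64, 8.56 and 7.96 in KO replicates 1 to 4, against 7.81, 6.35, 7.51 and 7.36 in WT replicates 1 to 4. 3 knockout arrays were above every wild type array, and KO replicate 1 was not. The difference was 0.93 ± 0.31 (SE, limma adjusted p = 0.202), and the SD was 0.50 in KO and 0.63 in WT. Without WT replicate 2 the difference was 0.63.

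Trim40, a gut-enriched neighbour of Trim15 on chromosome 17, read 7.51, 8.21, 8.33 and 7.82 in KO replicates 1 to 4, against 8.23, 7.01, 7.93 and 7.48 in WT replicates 1 to 4. The genotypes overlapped (difference 0.31 ± 0.26 SE, limma adjusted p = 0.657). WT replicate 2 was the lowest array for both Trim15 and Trim40, KO replicates 2 and 3 were the highest KO arrays for both, and KO replicate 1 was the lowest KO array for both.

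Trim31, which in mouse macrophages targets the inflammasome sensor NLRP3, is a further neighbour on chromosome 17. It read 8.70, 9.04, 9.53 and 9.22 in KO replicates 1 to 4, against 9.59, 9.31, 9.33 and 9.02 in WT replicates 1 to 4, with overlap and a difference of -0.19 ± 0.17 (SE, limma adjusted p = 0.685). Without KO replicate 1 this was -0.05, without WT replicate 1 -0.10, without WT replicate 4 -0.28 and without KO replicate 3 -0.33. Trim29 and Trim50, the other members of this list, had differences of 0.12 and 0.16, neither called. All KO values of Trim29 lay above its WT values, with a gap of 0.02, and the genotypes overlapped in Trim50. Over the 5 epithelial members 0 were called and the median difference was 0.16. Colonocyte markers were lower in KO, while 4 of the 5 epithelial members had differences above zero. The marker mean was 10.58 ± 0.05 in KO and 10.94 ± 0.09 in WT (SD, n = 4 each). Of 17 markers 15 had differences below zero (median -0.12, lowest -1.81), and 2 were called lower, Car4 and Slc37a2. The part of colonocyte content in the values of the epithelial members was not tested.

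The chromatin members lay near zero. Trim28, the corepressor that silences retroelements with KRAB zinc finger proteins, read 8.77, 8.66, 8.59 and 8.48 in KO replicates 1 to 4, against 8.57, 8.74, 8.63 and 8.63 in WT replicates 1 to 4, a difference of -0.02 with a 95% interval from -0.20 to 0.17 (limma adjusted p = 0.957). Trim24, a nuclear receptor cofactor, had a difference of -0.11, Trim33, which acts on Smad4, 0.04 and Trim66 -0.11. 0 of these 4 were called, and the intervals of all 4 lay between -0.39 and 0.23.

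The NHL repeat members, RNA-binding or neuronal ligases, were also near zero. Trim2, a ligase of neurons, read 7.98, 8.01, 7.84 and 7.77 in KO replicates 1 to 4, against 8.05, 8.11, 8.10 and 7.78 in WT replicates 1 to 4. The genotypes overlapped, and the difference was -0.11 ± 0.10 (SE, limma adjusted p = 0.674). It was -0.19 without WT replicate 4, which lay apart from the other WT arrays, and -0.07 without KO replicate 4. Trim3 had a difference of 0.00, Trim32 -0.17 and Trim71, the stem cell factor Lin41, -0.07.

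Members known from neurons had differences of 0.00 to -0.21, with 4 of 5 below zero and 0 called. Trim9, a synaptic and axon guidance ligase, had the lowest, -0.21 (limma adjusted p = 0.366), Trim46, which organises axonal microtubules, -0.16 and Trim67 -0.02. The mean of 15 neuron and glia markers was 6.09 to 6.40 in KO and 6.28 to 6.56 in WT, with 0 called, and 0 higher and 4 lower at the unadjusted p. The part of neuron content was not tested.

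Striated muscle members included Trim63, the atrophy ligase MuRF1, at 0.13, its relatives Trim54 and Trim55 at 0.06 and 0.14, and Trim72, which takes part in membrane repair. Trim72 read 6.16, 5.82, 6.05 and 5.99 in KO replicates 1 to 4, against 6.28, 6.05, 6.40 and 5.85 in WT replicates 1 to 4, a difference of -0.14 ± 0.13 (SE, limma adjusted p = 0.675), which was -0.06 without WT replicate 3, -0.08 without KO replicate 2 and -0.24 without WT replicate 4. None of the 4 was called. The mean of 19 skeletal muscle markers was 5.70 to 5.80 in KO and 5.85 to 5.93 in WT. 1 of them, the slow troponin gene Tnni1, was called lower (difference -0.47, limma adjusted p = 0.0264). At the unadjusted limma p 0 were higher and 5 lower, with 6 differences above zero and 13 below. Des is on this list and on the smooth muscle list. Trim36, a COS box ligase known from the sperm acrosome of the mouse, read 7.19, 7.41, 7.13 and 7.15 in KO replicates 1 to 4, against 7.18, 7.20, 7.27 and 7.07 in WT replicates 1 to 4 (difference 0.04, limma adjusted p = 0.883).

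Trim10, the second member known from red cell precursors besides Trim58, read 5.45, 5.67, 5.48 and 5.56 in KO replicates 1 to 4, against 5.89, 5.29, 5.46 and 5.36 in WT replicates 1 to 4. WT replicate 1 was the highest array, and the groups overlapped (difference 0.04 ± 0.13 SE, limma adjusted p = 0.925). The mean of the 10 measured erythroid markers was 5.46 to 5.55 in KO and 5.44 to 5.59 in WT, with 0 called by limma and 1 higher at the unadjusted p (Rhag, a subunit of the Rh membrane complex, difference 0.28, limma adjusted p = 0.144). The globin genes of the list were not among the genes tested.

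Of the members with another or no C-terminal domain, Trim52 and Trim59 came nearest to the threshold. Trim52 read 4.14, 4.27, 4.10 and 4.19 in KO replicates 1 to 4, against 4.34, 4.45, 4.28 and 4.52 in WT replicates 1 to 4. The groups were 0.01 apart, with a difference of -0.22 ± 0.08 (SE, limma adjusted p = 0.238). All values of Trim52 lay below every array median (5.73 to 5.83), and the filter on the dimmest 33.3% of genes left it out. Trim59, a ligase with a transmembrane segment, lay above WT in every KO array, 7.77, 7.90, 7.85 and 7.74 against 7.72, 7.66, 7.60 and 7.64 in WT, with a difference of 0.16 (limma adjusted p = 0.357). Trim37, which acts in peroxisomes and centriole assembly, read 8.22, 8.12, 8.08 and 7.995 in KO replicates 1 to 4, against 8.38, 8.42, 8.13 and 8.11 in WT replicates 1 to 4. All 4 knockout arrays were below the WT mean, and the difference of -0.16 ± 0.10 (SE) did not pass (limma adjusted p = 0.518). Trim8 had a difference of -0.07, Trim44 0.12, Trim13 -0.05, Trim23 -0.05 and Trim45 -0.07.

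The other PRYSPRY members spanned differences from -0.13 to 0.23. Trim43c had 0.23, Trim35 0.21, Trim43a 0.12, Trim39 0.09, Trim75 0.07 and Trim41 0.01. Those below zero were Trim43b at -0.01, Trim69 at -0.03, Trim80 at -0.06, Trim47 at -0.10, Trim62 at -0.11 and Trim68 at -0.13. The 3 Trim43 genes, known from the early mouse embryo, are known as related copies, and whether their probes tell them apart was not tested.

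5 relatives whose symbols do not begin with Trim carry the same domain order or count as members of the family. Mefv, which encodes pyrin, an inflammasome sensor of neutrophils and monocytes, rose in KO. It read 5.64, 6.08, 5.86 and 5.72 in KO replicates 1 to 4, against 5.18, 5.11, 5.16 and 5.26 in WT replicates 1 to 4, without overlap (difference 0.65 ± 0.10 SE, limma adjusted p = 0.0231). The neutrophil marker mean moved beside it, as given above, and its part was not tested. Mid1, a microtubule-bound ligase, had a difference of -0.46 with overlap (limma adjusted p = 0.244). Cmya5 had 0.13, Mid2 0.02 and Pml, the organiser of nuclear bodies, -0.03.

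Genes that work with TRIM ligases were examined next. Of 15 measured ubiquitin-conjugating E2 genes 0 were called by limma, and 0 were higher and 1 lower at the unadjusted p, Ube2b (difference -0.25, limma adjusted p = 0.246), with a median of -0.03. Of 9 measured dynein subunit genes 0 were called, and 1 was higher at the unadjusted p, the light chain gene Dynll1 (difference 0.23, limma adjusted p = 0.220), with a median of 0.02.

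Of 22 measured genes of Toll-like receptor signalling 0 were called by limma, and 3 were higher and 2 lower at the unadjusted p, with a median of 0.07. Tlr2 had the smallest p: it read 7.31, 7.31, 7.41 and 7.22 in KO replicates 1 to 4, against 6.91, 6.78, 6.55 and 7.09 in WT replicates 1 to 4, without overlap, and missed the threshold (difference 0.48 ± 0.11 SE, limma adjusted p = 0.0924). Of 18 autophagy genes 0 were called, and 0 were higher and 3 lower at the unadjusted p, with a median of -0.07. There were 4 differences above zero and 14 below, and the list mean was 8.16 to 8.19 in KO and 8.20 to 8.35 in WT. Atg12, part of the conjugation machinery of the autophagosome, had the smallest p (difference -0.23, limma adjusted p = 0.162).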

How the data were processed

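Total RNA of 8 mice was hybridised to 1 array each. The deposited values are log2 signals that the authors made by RMA in Affymetrix Expression Console 1.4, per the submitters' processing notes; no filter, annotation version or scan batch was stated there or in the labels. Arrays give no counts, and their number limits the precision. Of 41345 probe sets, 23521 carried 1 gene symbol, 1814 several and 16010 none; 1 probe set per gene, the brightest, left 22180 genes, with symbols looked up by Entrez identifier in the RefSeq table (23328 matched). No pair of arrays was identical. The labels name separate mice.

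The comparison of KO with WT used limma 3.58.1 under R 4.3.3 (lmFit, eBayes, no covariate, Benjamini-Hochberg over all genes, threshold 0.05), and single genes also by exact two-sided permutation over 70 assignments. RMA compresses differences of dim genes, and levels cannot be set against each other between probe sets. The scripts were tested on simulated data. The members, the lists and the rule for named genes (Trim58, members past a threshold, the brightest member of each list, and other members by value) were chosen with earlier results of these data known. Trim30d, Trim40 and Trim59 are given by array because their neighbours or groups were. Alternatives covered the variance model, array weights, normalization, a filter on the dimmest 33.3%, the probe set used, the replicate number as a block, a pancreatic covariate, permutation, and leaving out each array; KO replicate 3 alone against WT was added after the data were seen. Replicate numbers are not stated to pair mice.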

Additional observations from a re-analysis of the deposited data

Results flagged for a closer look

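Each member's 4 values per genotype were checked for an array far from the rest of its group by Dixon's 95% criterion on the gap to the nearest other array. In 128 groups of 4 arrays this marked 7, and chance marks about 1 in 20 groups. In KO, replicate 4 was high for Trim6 (6.88, the others 6.57 to 6.61) and for Trim75 (3.57, the others 3.19 to 3.20). In WT, replicate 4 was low for Trim2 (7.78, the others 8.05 to 8.11), for Trim44 (7.82, the others 8.24 to 8.29) and for Trim56 (7.33, the others 7.89 to 7.94). It was high for Trim43b (5.82, the others 4.99 to 5.06). WT replicate 2 was low for Trim75 (2.83, the others 3.31 to 3.40). None of these genes was called in the comparison of genotypes.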

How the results depend on the processing

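Among the alternatives with more than 1 array per genotype, Trim30b was the only member called, except in 2 settings where 0 were called. These were the pancreatic covariate and exact permutation with adjustment over all genes. Permutation cannot decide this, since Trim30b already had its smallest p, 0.0286, which adjustment turned to 0.324. With KO replicate 3 alone against WT, a fit in which the lone array is assumed to vary like the WT arrays, the Trim30b difference was 1.12. The number of members at an unadjusted p under 0.05 was 7, and 7 to 11 without 1 array, with 11 without KO replicate 3 and 11 without WT replicate 4. Of all 22180 genes this threshold took 3176 in the main fit, 2969 without KO replicate 3 and 3185 without WT replicate 4. Whether the members differ from all genes in this was not tested. The replicate block also gave 7 members at the unadjusted p and kept 1 call. Deviations of same-numbered mice from their group means correlated from -0.16 to 0.05, and with so few arrays this does not settle whether the mice were paired. The block moved the calls over all genes from 128 to 64. Those calls were 199 with array weights, 203 without dim genes, 2 with the pancreatic covariate, 14 with KO replicate 3 alone and 0 by permutation (1954 at its unadjusted p), and without KO replicate 1, 2 or 3 or WT replicate 2, 3 or 4 they were 55, 43, 252, 25, 78 and 65. The median difference of the members moved to 0.037 without dim genes (16 members left out, Trim58 and Trim52 among them), -0.0036 with the most variable probe set, 0.025 with the pancreatic covariate and 0.024 with KO replicate 3 alone, and lay between -0.024 and 0.029 without 1 array. Trim58 lay between -0.18 and 0.0029 without 1 array, and turned without KO replicate 3; it was -0.33 with the pancreatic covariate and -0.30 with KO replicate 3 alone. Trim27 turned to -0.024 with the most variable probe set, which is the dimmer of its sets. Other uncalled members also turned: Trim28 to 0.0025 with repeated quantile normalization (-0.063 to 0.033 without 1 array); with the pancreatic covariate and with KO replicate 3 alone, Trim25 to 0.031 and 0.052, Trim31 to 0.17 and 0.22, Trim36 to -0.055 and -0.045, and Trim10 to -0.034 and -0.023. Without 1 array Trim36 lay between -0.022 and 0.072 and Trim10 between -0.029 and 0.17. The cause of these changes was not tested, beside what the construction of each alternative shows. The fits with the pancreatic covariate and with KO replicate 3 alone both rest mainly on that 1 array and are not separate checks.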
